A study of Equus caballus with 45 samples.

Results

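The comparison described here set chondrocytes given the conditioned medium of STING-activated mesenchymal stromal cells (STING-MSC-CM) against chondrocytes given the conditioned medium of TLR-activated cells (TLR-MSC-CM), across all genes. Its members were the 3 chondrocyte samples labelled with the STING agonist and the 3 labelled with poly I:C, paired by the cell line code AG1, ORC or PC, and these made 6 of the 45 samples of the series. Equine bone marrow MSC had been exposed for 2 h either to 2′3′-cGAMP, the cyclic dinucleotide that activates STING, or to polyinosinic:polycytidylic acid (poly I:C), a double-stranded RNA mimic that activates TLR3. Both agonists are listed at 10 µg/mL in the series design but at 10 ng/mL in the labels of the samples. The MSC were washed and cultured on to make the medium. Chondrocytes of both groups had IL-1β and TNF-α, each at 20 ng/mL, and received 1 part of MSC-CM to 3 parts of complete medium for 24 h, followed by a wash and 24 h more before RNA was taken. The 3 chondrocyte samples given medium of resting MSC carried the same cytokines and codes and entered the fit for the spread. Single samples with cytokines only and with no addition, both labelled ORC, served for levels. By the study's methods the MSC came from 3 horses and the chondrocytes from the femoropatellar cartilage of 1 horse, expanded and cryopreserved before use. The labels place the code under cell line and do not say which cells it names, and of the 3 codes only PC also stands on MSC samples of the series. Whether the 3 pairs differ in the donor of the medium, in the chondrocytes or in both therefore cannot be told apart. The study calls the samples biological replicates, but neither its methods nor the labels say that the chondrocytes of a group were separate isolations, so p-values measure the spread between these samples, part of which may be technical.

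Cyclic dinucleotides bind STING at the endoplasmic reticulum, and double-stranded RNA is read by TLR3 in endosomes. Both routes activate IRF3 and NF-κB and lead to secretion of type I interferon and chemokines. Interferon in a medium binds its receptor on other cells, and the transcription factors activated there switch on the interferon-stimulated genes. In cartilage, IL-1β and TNF-α act mainly through NF-κB, which raises chemokines and matrix-degrading enzymes in chondrocytes and lowers their matrix production. The question was whether chondrocytes under these cytokines responded differently to the 2 activated media.

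The libraries held 26567501 to 54103873 counts in the 6 samples compared, so that 3 counts, the floor used here, amounted to 0.0555 to 0.113 CPM, the usual count scaled to the total of its library. That floor covers counting error only. Per-sample values below are CPM on TMM-adjusted library sizes unless stated, always in the order AG1, ORC, PC. The 3 ORC samples stood apart from the other medium samples. With TMM scaling over all 11 chondrocyte samples, CADM3 was at most 0.0639 CPM in the 3 ORC samples and 24.9 to 105 in the 8 others. ACKR1, CRYBB3 and CYP2D84 showed the same pattern. PREX2 stood at 4.37 to 4.69 CPM in the ORC samples, at most 0.133 in the other chondrocyte samples and 10.2 to 15.8 in synoviocytes. Synoviocytes held CRYBB3 at 4.58 to 6.34 CPM and CADM3 at 0.540 to 1.94 CPM, above the ORC samples. ACKR1 and CYP2D84 reached at most 0.272 and 0.233 CPM in synoviocytes. The cytokine-only and no-addition samples, although labelled ORC, were with the others on these 5 genes. The first principal component held 71.1% of the variance of the 9 medium samples, 99.3% of it between codes and 0.0988% between media. Both arms of the contrast contained 1 ORC sample. Values without the ORC samples are given for several lists and for genes whose difference lay mainly in that pair.

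The labelled cell type was only in part visible in its markers, given here as CPM with TMM scaling over the 11 chondrocyte samples. COL2A1, the main collagen of hyaline cartilage, reached at most 0.383 CPM in any of the 11 chondrocyte samples, COL9A1 at most 0.0378 and HAPLN1 at most 0.444. ACAN ran from 6.05 to 97.0 CPM and SOX9 from 7.55 to 70.4, while COL1A1, the collagen of fibrous tissue, ran from 10220 to 26210. COL11A1 (118 to 533 CPM), SOX5 (11.4 to 22.0) and SOX6 (5.95 to 10.1) were present in every sample. The leukocyte marker PTPRC reached at most 0.162 CPM and the endothelial CDH5 at most 0.0639. Other markers of these cell types were present, with PECAM1, also endothelial, at 56.1 to 92.8 CPM and the leukocyte marker CD14 at 0.643 to 2.29. CD68, given below, was present in every sample as well.

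Interferon-stimulated genes had the largest median difference between the 2 media among the 18 gene lists, with higher levels under STING-MSC-CM, and the difference lay mainly in the AG1 pair. Of 62 members tested, 61 had a higher fitted level with STING-MSC-CM and 1, PLSCR1, a lower one. No gene of the transcriptome passed an adjusted p of 0.05 (edgeR's quasi-likelihood test, 0% of 14304 genes tested), and the smallest adjusted p was 0.0502, for ACTG2. DESeq2 with the same block called 2 genes, ACTG2 and CCDC81, the latter with counts in 1 of the 6 samples (0.159 CPM). Leaving out single samples or codes gave 0 to 7 calls in edgeR, with 7 when the PC sample with STING-MSC-CM was left out. At an unadjusted p under 0.05, 598 genes passed, 328 higher with STING-MSC-CM (2.29% of those tested) and 270 lower (1.89%), and without the code as a block 116 did. In the interferon list 39 of 62 members were among the higher (62.9%) and none among the lower. The median log2 difference of the list was 0.68, against 0.00 over all genes tested. All lists were chosen with earlier results of these data known, so their ranking and shares are not separate evidence. Every gene difference below is thus one that did not pass the adjusted threshold, and its adjusted p was 0.996 or more unless another is given.

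The 3 pairs contributed unequally. The median difference of the interferon list on log2(CPM + 0.5) was 1.10 in AG1, 0.13 in ORC and 0.04 in PC, and 61, 43 and 35 of the 62 members respectively were higher with STING-MSC-CM. In 57 of the 62 genes the AG1 sample with STING-MSC-CM was the highest of the 6. A difference of at least 1 was reached by 32 members in AG1, by IFI27 and IFI6 in ORC, and by LGALS3BP in PC. In all 3 pairs 28 members were higher, against 10.9% of all genes tested. In 4 members (HERC6, USP18, SAMD9L and IFIT2) the STING-MSC-CM samples all lay above the TLR-MSC-CM samples, against 1.68% of all genes. For HERC6 and SAMD9L this rested on values below the floor of 3 counts. Their ORC samples with STING-MSC-CM stood at 0.0378 CPM, against up to 0.0350 and 0.0319 CPM with TLR-MSC-CM. Over all genes, differences of at least 1 numbered 74 in AG1, 32 in ORC and 4 in PC, and differences of -1 or below numbered 14, 19 and 2.

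**Figure D1:**
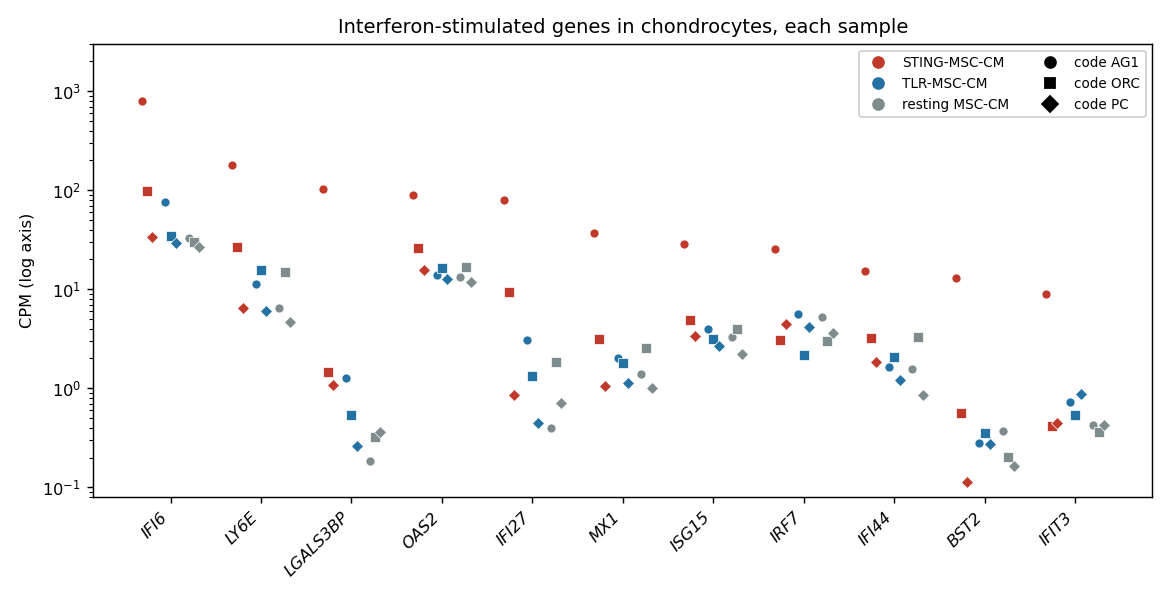
Levels of 11 interferon-stimulated genes in each chondrocyte sample, as CPM on a log axis. Red marks stand for STING-MSC-CM, blue for TLR-MSC-CM and grey for resting MSC-CM with 1 marker shape per code. The AG1 sample with STING-MSC-CM was the highest for every gene shown, as for IFI6 at 802 CPM against 26.8 to 97.8 in the other samples.

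LGALS3BP, a secreted glycoprotein that binds galectin-3, had the largest log2 fold change among the members that reached 10 CPM in any of the 6 samples. It stood at 104, 1.47 and 1.09 CPM with STING-MSC-CM and at 1.26, 0.542 and 0.259 CPM with TLR-MSC-CM, which were means of 35.4 ± 59.1 and 0.687 ± 0.516 CPM (SD, n = 3). STING-MSC-CM was the higher in every pair, but the groups overlapped, since the AG1 sample with TLR-MSC-CM lay above the PC sample with STING-MSC-CM. The log2 fold change was 4.95 (SE 0.77) with an adjusted p of 0.0897 by edgeR. Resting MSC-CM gave 0.186, 0.323 and 0.358 CPM. Without the AG1 STING-MSC-CM sample the log2 fold change was 1.34.

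IFI27 and IFI6 code for small membrane proteins induced by type I interferon. IFI27 was 79.3, 9.41 and 0.862 CPM with STING-MSC-CM and 3.04, 1.34 and 0.443 CPM with TLR-MSC-CM, where the fitted log2 difference was 3.65 (SE 0.658, adjusted p = 0.218 by edgeR). IFI6 was 802, 97.8 and 33.3 CPM with STING-MSC-CM and 76.7, 34.6 and 29.4 CPM with TLR-MSC-CM, means of 311 ± 426 and 46.9 ± 25.9 (SD, n = 3) and a log2 fold change of 2.01. In both genes the difference was largest in AG1 and smallest in PC, and 35 of the 62 members had this order of AG1, ORC, PC.

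Among the antiviral effectors, MX1, the GTPase that blocks viral nucleocapsids, stood at 37.1, 3.17 and 1.05 CPM with STING-MSC-CM and at 2.03, 1.78 and 1.13 CPM with TLR-MSC-CM. Its log2 fold change was 2.30, and the PC pair showed no higher value. OAS2, a synthetase that makes the activator of RNase L, was 89.6, 26.1 and 15.5 CPM against 13.9, 16.6 and 12.8 CPM, higher in each pair (log2 fold change 1.34). IFIT3, whose protein acts with IFIT1 on viral RNA, was 8.97, 0.416 and 0.450 CPM against 0.735, 0.542 and 0.868 CPM. Only AG1 was higher there, and without the AG1 STING-MSC-CM sample the log2 fold change of IFIT3 was -0.69. PARP12, an antiviral ADP-ribosyltransferase, was 35.9, 20.3 and 17 CPM against 18, 15.1 and 14.2 CPM, higher in each pair.

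ISG15, the ubiquitin-like modifier, was 28.9, 4.95 and 3.41 CPM with STING-MSC-CM and 3.95, 3.12 and 2.68 CPM with TLR-MSC-CM, a log2 fold change of 1.54. USP18, which removes ISG15 and dampens the interferon receptor, was 2.88, 0.642 and 0.412 CPM against 0.105, 0.223 and 0.222 CPM. HERC6, an E3 ligase of the same family as the ISG15 ligase, was 4.39, 0.0378 and 0.112 CPM against 0.0350, 0.0319 and 0 CPM, where the TLR-MSC-CM samples held 1, 1 and 0 counts (adjusted p = 0.176 by edgeR). The activating and conjugating enzymes of ISG15 had small log2 fold changes of 0.24 and 0.20. UBA7 was 10.0, 3.36 and 5.51 CPM against 7.59, 2.49 and 5.95 CPM and UBE2L6 was 22.4, 9.56 and 12.6 CPM against 18.3, 6.72 and 14.5 CPM.

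Some members were seen in the AG1 STING-MSC-CM sample and hardly elsewhere among the 6. XAF1, OASL and ZBP1 stood at 1.11, 1.2 and 0.385 CPM there and at 0 counts in the other 5. Against a floor of 3 counts over the TLR-MSC-CM group these are mean levels at least 4.34-fold, 4.69-fold and 1.5-fold higher. With these 3 genes set at their bounds the median of the interferon list was 0.61. BST2, or tetherin, which holds budding virus at the cell surface, was 13, 0.567 and 0.112 CPM against 0.280, 0.350 and 0.277 CPM. LY6E, a membrane-anchored modulator of viral entry, was 178, 26.9 and 6.41 CPM against 11.3, 15.7 and 6.0 CPM.

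Of the transcription factors of the interferon response, IRF7 had a log2 fold change of 1.13 and IRF9 of 0.47. IRF7, the amplifier of type I interferon transcription, was 25.7, 3.06 and 4.42 CPM with STING-MSC-CM and 5.6, 2.17 and 4.14 CPM with TLR-MSC-CM. IRF9, a DNA-binding factor that acts downstream of the interferon receptor, was 59.9, 24.8 and 24.8 CPM against 26.2, 23.3 and 24.9 CPM. In both genes the AG1 STING-MSC-CM sample was the highest and the ORC and PC pairs differed by at most 0.42 on the log2(CPM + 0.5) scale. CXCL10, a chemokine induced by interferon, was at most 0.0679 CPM in the 6 samples, so that no difference was detectable at this depth.

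Without the AG1 STING-MSC-CM sample, 7 of 57 interferon members tested were higher at an unadjusted p under 0.05 (LGALS3BP, IFI27, PARP12, IFI6, OAS2, ISG15 and LY6E), against 1.39% of all genes, and 1 was lower (TRANK1), against 1.17%. The list's median was then 0.13. Without the 3 ORC samples, 43 of 62 members were higher at that p, against 2.19% of all genes, and none was lower, against 2.68%. The median was then 0.86. With TLR-MSC-CM most of these genes lay near their levels under resting MSC-CM, as in MX1 at 1.41, 2.54 and 1.01 CPM and OAS2 at 13.3, 16.9 and 11.7 CPM in the resting samples. In AG1, however, IFI27 was 3.04 CPM with TLR-MSC-CM and 0.398 CPM under the resting medium.

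**Figure D2:**
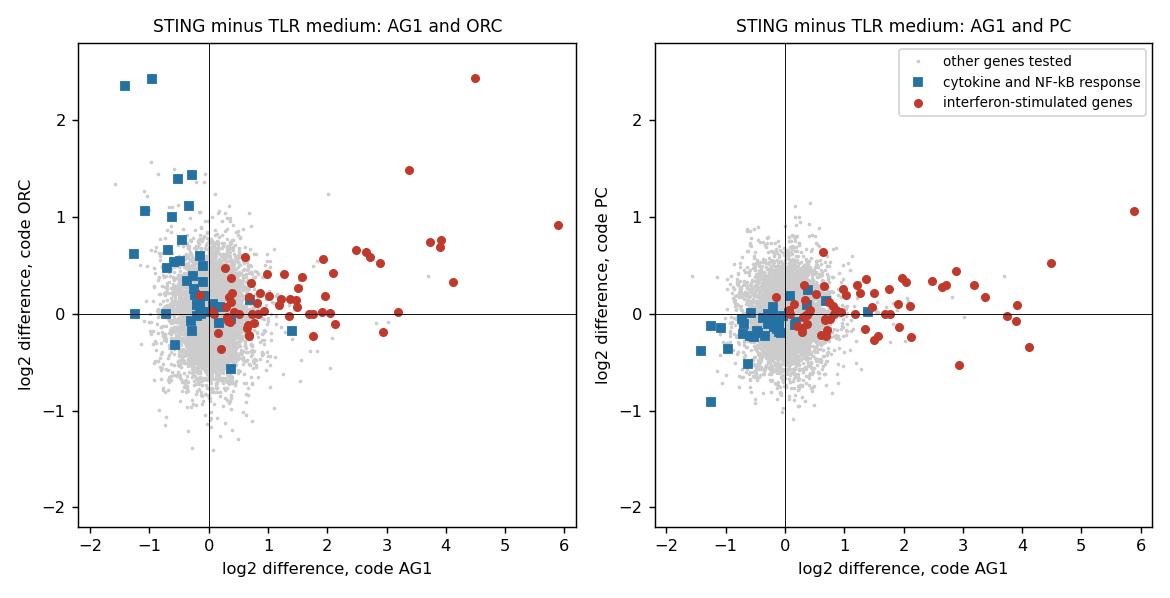
Difference between the 2 media on log2(CPM + 0.5), STING minus TLR, in AG1 (horizontal axis) against ORC and against PC (vertical axes), for each gene tested. Red circles are interferon-stimulated genes, blue squares cytokine and NF-κB response genes and grey points the other genes, and red circles spread along the AG1 axis with medians of 1.10 in AG1, 0.13 in ORC and 0.04 in PC.

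The list of interferon receptors, signalling and regulators had 13 of 21 tested members higher and 8 lower, with 3 higher at an unadjusted p under 0.05 (2.29% of all genes were), the above IRF7, IRF9 and USP18, and a median of 0.04. In the list of nucleic acid sensors and adaptors 15 of 20 were higher, 6 at an unadjusted p under 0.05, against the same 2.29%, with a median of 0.06. Of those, 3 of the first list and 4 of the second also stand in the interferon list. DDX58 codes for RIG-I, the sensor of viral RNA ends, and was 60.9, 18.6 and 39.1 CPM with STING-MSC-CM and 36.4, 18.5 and 35.9 CPM with TLR-MSC-CM. DHX58, its regulator LGP2, was 12.6, 1.06 and 2.77 CPM against 3.92, 0.701 and 3.34 CPM. TREX1, the nuclease that clears cytosolic DNA, was 6.34, 4.87 and 5.17 CPM against 4.72, 3.98 and 4.17 CPM. Its groups did not overlap, as in 1.68% of all genes in that direction. TLR3 was 0.974, 0.113 and 0.337 CPM against 0.175, 0.159 and 0.0554 CPM and had 0 counts in the 3 resting samples. These levels were 43, 3 and 9 counts against 5, 5 and 3, so some lay at the floor of 3 counts. The no-addition sample held 6 TLR3 counts and the cytokine-only sample 1. STING1 itself was 16.6, 10.1 and 16.7 CPM against 14.5, 9.62 and 15.4 CPM, differing more between codes than between media. Without the AG1 STING-MSC-CM sample, no member of either list was higher at an unadjusted p under 0.05.

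MHC class I antigen processing had 14 of 18 members higher and a median of 0.12, with pair medians of 0.26, 0.03 and -0.02. Of its members, 2 were higher at an unadjusted p under 0.05, against 2.29% of all genes. B2M, the light chain of class I molecules, was 442, 180.2 and 194 CPM with STING-MSC-CM and 189, 198 and 173 CPM with TLR-MSC-CM. ERAP2, which trims peptides, was 18.6, 9.97 and 13.7 CPM against 10.7, 8.6 and 13.8 CPM. PSMB10, an immunoproteasome subunit, was 4.76, 3.21 and 3.48 CPM against 5.95, 3.7 and 4.49 CPM and thus lower in each pair. The B2M differences were 1.22, -0.13 and 0.16 on the log2(CPM + 0.5) scale, and both B2M and ERAP2 missed an unadjusted p of 0.05 without the AG1 STING-MSC-CM sample.

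Genes of other groups that reached a difference of at least 1 in AG1 were looked up after their values were seen. The complement serine protease gene C1S was 145, 94.6 and 54.4 CPM with STING-MSC-CM and 40.4, 124 and 50.1 CPM with TLR-MSC-CM. CFB, factor B of the alternative pathway, was 332, 91.7 and 168 CPM against 126, 104 and 165 CPM. AGRN, the proteoglycan agrin, was 426, 203 and 177 CPM against 193, 178 and 197 CPM. The class I gene EQMHCC1 was 15.8, 6.58 and 3.48 CPM against 6.58, 6.28 and 5.17 CPM, with uncertainty since class I genes are near-identical and can share reads. In all 4 the AG1 pair differed by at least 1 and the ORC and PC pairs by less. CD68, a lysosomal marker of macrophages, also stood highest in AG1, at 36.4, 13.3 and 15.8 CPM against 16, 11.5 and 14.8 CPM.

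Leukocyte markers were otherwise low. Of 17 listed genes 6 were tested, 1 higher and 5 lower. Only CD68 had an unadjusted p under 0.05, and 2.29% of all genes were higher at that p. The summed level of the list was 15.2 to 39.0 CPM with STING-MSC-CM and 13.6 to 19.6 CPM with TLR-MSC-CM. CD163, SPI1, C1QB, C1QC and CD3E had no count in the fitted samples. PTPRC was 0, 0.0378 and 0.0375 CPM against 0.0350, 0.128 and 0.0369 CPM and CD14 was 1.09, 0.642 and 1.8 CPM against 2.27, 1.02 and 1.29 CPM, without a higher value in the AG1 STING-MSC-CM sample. The part of CD68-bearing cells in the interferon result was not tested. In such bulk samples fewer cells of a type and less RNA per cell cannot be told apart.

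Cytokine and NF-κB response genes had median differences of opposite sign in the AG1 and ORC pairs. Of 42 members tested, 17 were higher and 25 lower with STING-MSC-CM, and the median was -0.02. At an unadjusted p under 0.05 none was higher and 2 were lower (4.76%), against 2.29% and 1.89% of all genes. By pair the medians were -0.24 in AG1, 0.18 in ORC and -0.10 in PC, with 8, 31 and 8 members higher. Without the 3 ORC samples, 8 members were lower and 3 higher at an unadjusted p under 0.05, against 2.68% and 2.19% of all genes.

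CXCL8, the neutrophil chemokine IL-8, was 1254, 184 and 882 CPM with STING-MSC-CM and 3356, 35.6 and 1152 CPM with TLR-MSC-CM. The differences were -1.42, 2.36 and -0.38 on the log2 scale, and the fitted log2 fold change was 0.20 (SE 0.532), or -0.99 without the ORC samples. The AG1 TLR-MSC-CM sample was above its resting partner (1407 CPM) and near the cytokine-only sample (3269 CPM). CXCL1, of the same chemokine family, was 1263, 459.7 and 1382 CPM against 2666, 219 and 1534 CPM, with the same signs by pair. PTGS2, the inducible cyclooxygenase of prostaglandin synthesis, was 3122, 356 and 1921 CPM against 3799, 132 and 2065 CPM. ORC samples held the lowest levels of all 3 genes under either medium.

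IL6 was 3428, 1262 and 2763 CPM with STING-MSC-CM and 4434, 997 and 2856 CPM with TLR-MSC-CM, and its log2 fold change of -0.02 (SE 0.133) was small beside the gap between ORC and the other codes. IL1A, an alarmin cytokine, was 5.43, 0 and 1.46 CPM against 13.6, 0 and 3.19 CPM, lower in AG1 and PC and at 0 counts in both ORC samples (log2 fold change -1.17). CCL5, a T cell chemokine, was 26.2, 6.27 and 17.3 CPM against 39, 8.0 and 17.2 CPM (log2 fold change -0.32). SAA1, an acute phase protein, was 6731, 5616 and 7636 CPM against 8169, 6337 and 7654 CPM.

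**Figure D3:**
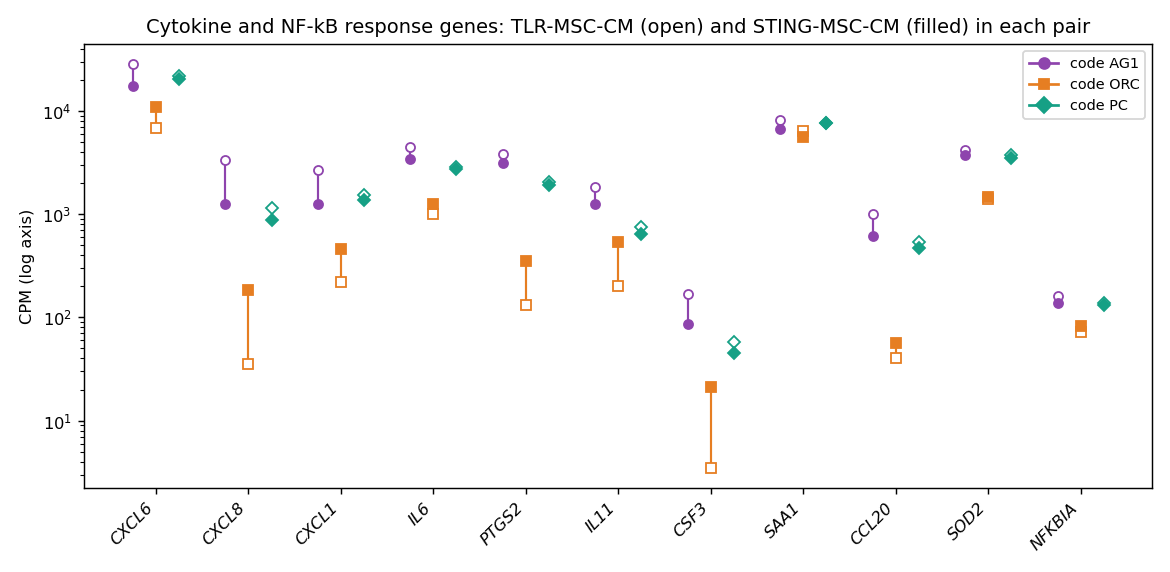
Levels of 11 cytokine and NF-κB response genes as CPM on a log axis, with TLR-MSC-CM as open and STING-MSC-CM as filled marks, joined within each code. The lines of AG1 and ORC slope in opposite directions for CXCL8, at 3356 to 1254 CPM in AG1 and 35.6 to 184 CPM in ORC.

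Matrix-degrading enzymes and inhibitors had 8 of 27 members higher and 19 lower, with a median of -0.04. At an unadjusted p under 0.05, 1 was higher (3.70%) and 3 were lower (11.1%), against 2.29% and 1.89% of all genes. MMP13, the main collagenase of cartilage, was 2840.0, 2829 and 5181 CPM with STING-MSC-CM and 4248, 3644 and 5011 CPM with TLR-MSC-CM (log2 fold change -0.29, SE 0.108). It was lower in AG1 and ORC and slightly higher in PC. MMP11, stromelysin 3, was 18.1, 17.9 and 19.2 CPM against 21, 20.9 and 24 CPM, and its groups did not overlap, as in 1.64% of all genes in that direction. ADAMTS5, an aggrecanase, was 189, 153 and 182 CPM against 167, 103 and 184 CPM, with most of the difference in ORC. Its log2 fold change was 0.24, and 0.0784 without the ORC samples. PLAUR was the other member lower at an unadjusted p under 0.05.

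Cartilage matrix and chondrocyte factors had 15 of 27 members higher and 12 lower, with a median of 0.02. At an unadjusted p under 0.05, 1 member was lower (3.70%), against 1.89% of all genes. That member was FRZB, a secreted Wnt antagonist of articular cartilage, at 11, 22.9 and 17.3 CPM with STING-MSC-CM and 14.5, 37 and 17.3 CPM with TLR-MSC-CM. ACAN, the core protein of aggrecan, was 14.9, 12.7 and 14.1 CPM against 7.03, 21.8 and 16 CPM, higher in AG1 and lower in ORC and PC. SOX9, the master factor of chondrocytes, was 9.42, 42.9 and 10.2 CPM against 7.49, 70.2 and 10.6 CPM, and COMP, a matrix glycoprotein, was 33.3, 20.6 and 30.1 CPM against 25.7, 19.9 and 28.2 CPM. COL2A1 was 0.0453, 0.265 and 0.0375 CPM against 0.0350, 0.382 and 0.0739 CPM, with 1 to 12 counts a sample. Without the 3 ORC samples 4 members were higher at an unadjusted p under 0.05, against 2.19% of all genes, and the log2 fold change of FRZB went from -0.37 to -0.20. MMP3 and PRG4 were not analysed here.

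Fibroblastic and hypertrophic matrix genes had 10 of 25 members higher and 15 lower, with a median of -0.03. TNC, the matrix glycoprotein tenascin C, was the 1 member with an unadjusted p under 0.05. It was higher, as were 2.29% of all genes at that p. COL3A1 had a log2 fold change of -0.14 (SE 0.0937) and POSTN, at 2 to 42 counts a sample, of 0.76 (SE 0.62). The synovial lining and mesenchymal markers had 8 of 10 members higher with none at an unadjusted p under 0.05 and a median of 0.05. Their smallest p belonged to PDGFRA (log2 fold change 0.13), THY1 (0.14) and HTRA4, at 1 to 5 counts a sample. Endothelial markers had 2 of 5 members higher, none at an unadjusted p under 0.05, and a median of -0.40. PECAM1 was 56.7, 92.4 and 68.3 CPM against 55.6, 92.6 and 61.3 CPM, while VWF was 0.521, 0.0756 and 0.262 CPM against 0.560, 0.191 and 1.03 CPM and ESAM at most 0.185 CPM.

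Outside the interferon list, the genes with the smallest p that were higher in all 3 pairs coded in part for contractile and matrix proteins. ACTG2, smooth muscle gamma actin, was 48.8, 169.5 and 50.1 CPM with STING-MSC-CM and 34.2, 133 and 35.6 CPM with TLR-MSC-CM. Each pair was higher by a similar amount, and the fitted log2 difference was 0.45 (SE 0.0628, adjusted p = 0.0502 by edgeR). ACTG2 passed the adjusted threshold in 4 of 20 alternatives. Without the code as a block its log2 fold change was 0.41 with an unadjusted p of 0.606 by edgeR. Its small SE thus depended on pairing by code, as the ORC samples lay far above the others. MYH11, smooth muscle myosin heavy chain, was 9.9, 23.1 and 12.4 CPM against 7.59, 11.6 and 8.77 CPM (log2 fold change 0.62, SE 0.13, adjusted p = 0.706 by edgeR). TNC was 301, 369.9 and 236 CPM against 196, 294 and 219 CPM (adjusted p = 0.834 by edgeR). PLPP1, a lipid phosphatase, was 55.8, 54.7 and 51.7 CPM against 39, 46.9 and 46 CPM, and its groups did not overlap. ILDR2, a membrane protein, was 17.8, 14.7 and 13.1 CPM against 11.4, 10.9 and 11.1 CPM, likewise with no overlap. Groups without overlap in that direction were found in 241 of all genes tested (1.68%).

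The smooth muscle and pericyte markers had 6 of 7 members higher, with MYH11 and LMOD1 at an unadjusted p under 0.05 (2.29% of all genes were), a median of 0.09 and pair medians of -0.07, 0.11 and 0.25. LMOD1, an actin nucleator of smooth muscle, was 103, 180.4 and 114 CPM against 92.2, 155 and 99.1 CPM. DES, the muscle intermediate filament, was 0.974, 5.03 and 1.99 CPM against 1.05, 3.89 and 1.2 CPM. Without the AG1 STING-MSC-CM sample 4 of the 7 were higher at an unadjusted p under 0.05, against 1.39% of all genes, and the median was 0.20, while without the ORC samples 1 was, against 2.19%. ACTG2 was not in the list.

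**Figure D4:**
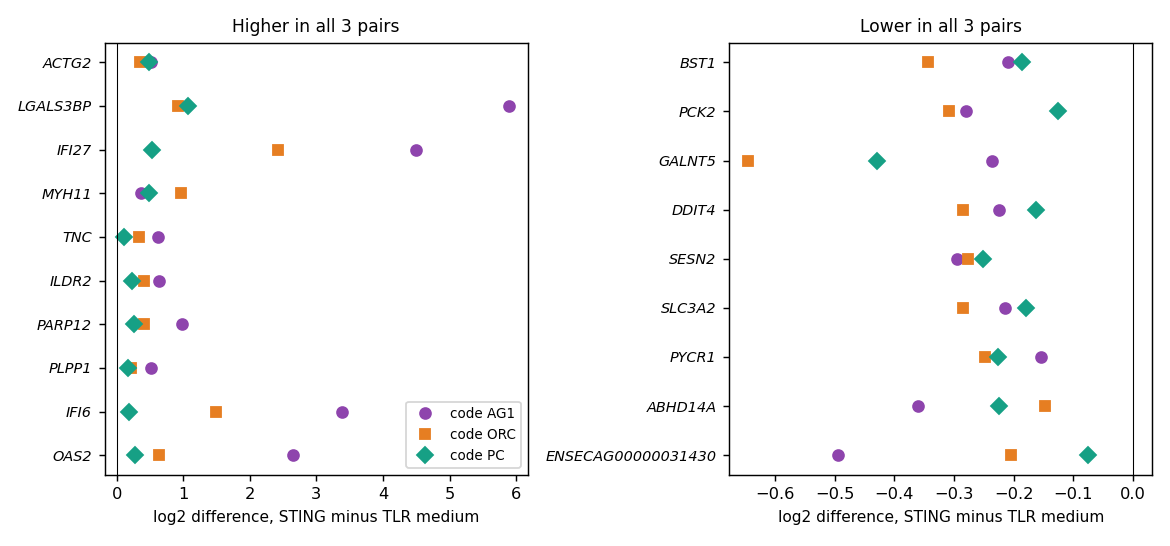
Difference between the media on log2(CPM + 0.5), STING minus TLR, within each code for the 10 higher genes, and 9 of the 10 lower genes, with the smallest p and the same direction in all 3 pairs. Marks stand for AG1, ORC and PC. LGALS3BP and IFI27 spread widely (5.89 to 0.92 and 4.49 to 0.53), whereas the differences of ACTG2 lie close together.

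Genes that were lower in all 3 pairs included several of amino acid metabolism and its stress response. PCK2, the mitochondrial phosphoenolpyruvate carboxykinase, was 166, 156 and 154 CPM with STING-MSC-CM and 201, 193 and 168 CPM with TLR-MSC-CM. The PCK2 groups did not overlap, as in 1.64% of all genes in that direction. SLC3A2, the heavy chain of amino acid transporters, was 116, 108 and 99 CPM against 134, 132 and 112 CPM. SESN2, a leucine sensor that restrains mTORC1, was 14.9, 20.3 and 12.4 CPM against 18.4, 24.7 and 14.9 CPM. DDIT4, another stress-induced restraint on mTORC1, was 249, 294 and 243 CPM against 291, 358 and 272 CPM. PYCR1, the last enzyme of proline synthesis, was 32.1, 61.4 and 30.7 CPM against 35.8, 73 and 36 CPM. Their log2 fold changes ran from -0.28 in SESN2 to -0.21 in PYCR1.

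Other genes among the 10 lower ones with the smallest p were of mixed function. BST1, an ectoenzyme that uses NAD, was 124, 95.8 and 135 CPM against 144, 122 and 154 CPM (log2 fold change -0.25, SE 0.0586). GALNT5, which starts O-glycans, was 7.77, 3.82 and 9.33 CPM against 9.24, 6.25 and 12.7 CPM. ABHD14A had a log2 fold change of -0.25 and the unnamed gene ENSECAG00000031430 of -0.26.

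In the list for the unfolded protein and amino acid stress response, 22 of 25 members were lower and 8 of them had an unadjusted p under 0.05 (32.0%), against 1.89% of all genes. The median was -0.15, with pair medians of -0.15, -0.19 and -0.05. In all 3 pairs 9 were lower, against 10.3% of all genes. Beside DDIT4, SESN2 and SLC3A2, the 8 were PSAT1, TRIB3, XBP1, ASNS and ATF4. ATF4, the transcription factor of amino acid shortage, was 344, 329 and 282 CPM against 382, 390.1 and 293 CPM. ASNS, asparagine synthetase and a target of ATF4, was 39.2, 49.7 and 37.1 CPM against 36.7, 95.1 and 40.3 CPM, and PSAT1, of serine synthesis, was 29.1, 45.2 and 27.2 CPM against 28.7, 97.5 and 29.9 CPM. ASNS and PSAT1 differed in ORC and little in the other pairs. Without the ORC samples their log2 fold changes went from -0.33 to -0.0179 and from -0.43 to -0.0588. At an unadjusted p under 0.05, 9 of the 25 were lower without the AG1 STING-MSC-CM sample, against 1.17% of all genes. Without the ORC samples 6 were lower at that p, against 2.68%.

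All 67 cytosolic ribosomal protein genes tested had a lower fitted level with STING-MSC-CM, 19 of them at an unadjusted p under 0.05 (28.4%, against 1.89% of all genes), with a median of -0.12. The pair medians were -0.19, -0.21 and 0.04, and 45 of the 67 were higher in the PC pair. RPS20 was 407, 473 and 427 CPM with STING-MSC-CM and 498, 618 and 437 CPM with TLR-MSC-CM, RPL22 was 114, 119 and 128 CPM against 123, 168 and 132 CPM, and RPS10 was 23.4, 22.8 and 23.8 CPM against 29.1, 29.9 and 24.1 CPM. Such genes have many processed copies, among which reads can be split. Without the AG1 STING-MSC-CM sample 6 were lower at that p, against 1.17% of all genes, and without the ORC samples 2, against 2.68%. The log2 fold change of RPL22, largest in the ORC pair, went from -0.22 to -0.0861 without the ORC samples.

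Glycolysis and hypoxia response genes were lower in 28 of 29 cases and lower in all 3 pairs in 15, against 10.3% of all genes, with a median of -0.07. At an unadjusted p under 0.05, 2 were lower, against 1.89% of all genes. CA9, a hypoxia-induced carbonic anhydrase, was 305, 304 and 325 CPM against 354, 325 and 353 CPM, and BNIP3, a mitophagy receptor, was 956, 676 and 886 CPM against 1053, 820.4 and 915 CPM. ALDOC, an aldolase, had a log2 fold change of -0.13. Cholesterol synthesis and uptake genes were lower in 18 of 24 cases, none at an unadjusted p under 0.05, with a median of -0.04. Here the pairs differed again, since none of the 24 was higher in AG1, 20 in ORC and 14 in PC. The 3 with the smallest p were PMVK (log2 fold change -0.15), HSD17B7 (-0.22) and MSMO1 (-0.08).

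DNA replication and cell cycle genes had 33 of 61 members higher and a median of 0.02. The pairs differed, with 51, 36 and 6 members higher in AG1, ORC and PC and pair medians of 0.08, 0.03 and -0.12. At an unadjusted p under 0.05, 1 member was higher (1.64%), against 2.29% of all genes. That was CDT1, a licensing factor of replication, at 14.2, 20.0 and 9.89 CPM with STING-MSC-CM and 10.7, 13.7 and 10.6 CPM with TLR-MSC-CM. POLA1 had a log2 fold change of -0.18 and MCM10 of 0.20. TGF-β and Wnt ligands, inhibitors and targets had 15 of 31 members higher and a median of -0.01. At an unadjusted p under 0.05, 2 were higher (6.45%) and 1 lower (3.23%), against 2.29% and 1.89% of all genes. INHBA, the subunit of activin A, was 112, 126 and 107 CPM against 106, 85.1 and 103 CPM. NOTUM, an enzyme that inactivates Wnt ligands, was 21, 36.8 and 18.9 CPM against 17.5, 32.5 and 16.4 CPM, and BMP6, a bone morphogenetic protein, was 34.7, 37.3 and 39.3 CPM against 42.8, 42.5 and 39.2 CPM. INHBA showed no overlap between its groups, as in 1.68% of all genes in that direction. Most of its difference lay in ORC, and its log2 fold change was 0.23, and 0.055 without the ORC samples.

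**Figure D5:**
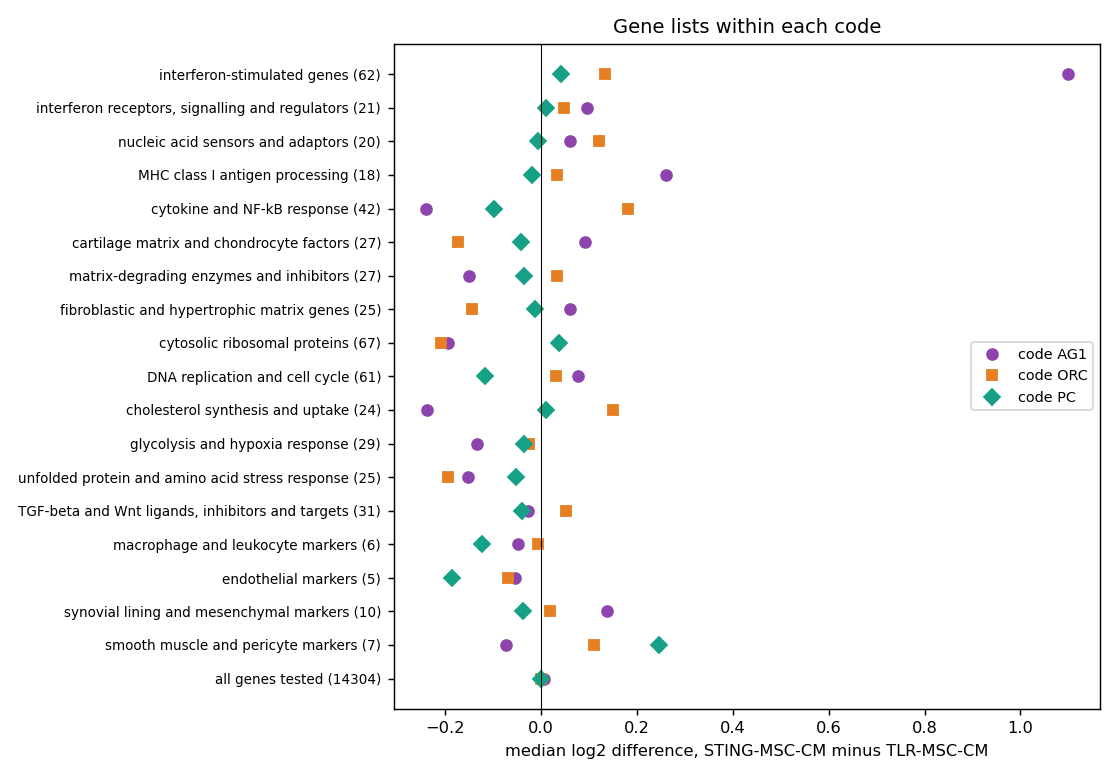
Median difference between the media on log2(CPM + 0.5), STING minus TLR, of each of the 18 gene lists and of all genes tested, within each code. The interferon list reaches 1.10 in AG1 and lies at 0.13 in ORC and 0.04 in PC, and the cytokine list changes sign between AG1 (-0.24) and ORC (0.18).

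The study's own thresholds were an unadjusted p of at most 0.05 together with an absolute log2 difference of 2 or more. In this fit 31 genes (0.217% of those tested) were higher and 10 (0.0699%) lower with STING-MSC-CM by that rule. Of the higher, 14 were in the interferon list, and of the lower, none. Low counts were frequent, since in 28 of the 41 genes 1 of the groups had at most 3 counts in every sample and only 13 of the 41 reached 1 CPM in any of the 6 samples. In 23 of the 31 higher genes the AG1 sample was the highest under STING-MSC-CM. Of the 41, 26 had the same direction in all 3 pairs, 19 higher and 7 lower, against 10.9% and 10.3% of all genes. Choosing these genes in a fit of the same pairs favours such agreement, so it is not separate evidence.

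The same contrast was tested against synoviocytes and macrophages that had received media of the same codes, the macrophages with cytokines given at 10 ng/mL in the labels and 20 ng/mL in the study's methods. No gene differed between chondrocytes and synoviocytes at an adjusted p under 0.05 (0% of 16584, edgeR interaction test), 394 did at an unadjusted p under 0.05, and without ORC 1 gene did at the adjusted threshold, LGALS3BP. Between chondrocytes and macrophages 14 genes differed (0.0844%), and without the code as a block 0 did. Of these, LGALS3BP and HERC6 were interferon genes whose difference between media was the higher in chondrocytes. The other genes had small log2 fold changes in chondrocytes (-0.13 to 0.32) and larger ones, in size, in macrophages. DPYSL2, for example, was at -0.13 in chondrocytes and 0.82 in macrophages, and PLAT at 0.05 and -1.77. The log2 fold change of LGALS3BP was 4.91 in chondrocytes, 0.23 in macrophages and 0.13 in synoviocytes, a difference of 4.68 from macrophages (adjusted p = 0.0330 by edgeR) and 4.78 from synoviocytes (adjusted p = 0.0817 by edgeR). That of HERC6 was 5.78, 0.04 and -0.73. Without the AG1 samples neither gene passed in the comparison with macrophages. The median of the interferon list, here over 64 members, was 0.61 in chondrocytes, -0.20 in synoviocytes and 0.17 in macrophages. By pair it was 0.08, -0.61 and 0.05 in synoviocytes and 0.27, 0.27 and 0.01 in macrophages. In synoviocytes ORC was thus the lowest pair, and in macrophages AG1 and ORC were level.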

How the data were processed

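The authors trimmed reads with Cutadapt 1.12, aligned them to the horse genome EquCab3.0 with STAR, counted reads per gene with HTSeq 0.11.0 against Ensembl gene models, keeping those that code for protein, and per the labels DESeq2 was their test. The strand setting of the counting is not given in the sources used here, so reads of overlapping antisense genes could not be told apart. The deposited values are whole-number counts without normalization for 20881 genes, 3970 of them by Ensembl identifier only. The MSC table was not used here, nor were any fold changes of the authors.

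Samples were grouped by their labels. Counts of the 9 chondrocyte samples with medium of MSC (resting, TLR or STING) were fitted in edgeR 4.0.16 (R 4.3.3) with TMM scaling, a term for medium and a block for the cell line code, over 14304 genes whose counts summed to 10 or more. The contrast of STING-MSC-CM and TLR-MSC-CM was tested with the quasi-likelihood F test, two-sided, with Benjamini-Hochberg adjustment, and fold changes used a prior count of 0.125. Samples were paired by their codes. Deviations from the group means correlated at 0.573 to 0.891 within a code (9 pairs) and at -0.773 to 0.613 between codes (18 pairs). The negative values all involved ORC, which stood apart, so this gap does not show pairing within AG1 and PC. Between AG1 and PC the correlations were 0.323 to 0.613, which overlaps the 0.573 to 0.686 within those 2 codes. Differences within a pair are on log2(CPM + 0.5). Interactions with the other cell types used 27 samples with the code as a block within each cell type. The fits were tested on simulated data in which all codes shared the same change, so differences lying mainly in AG1 were not covered. No 2 of the 9 samples had more than 1.17% of genes with identical counts.

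The 18 gene lists, the members and the alternatives were chosen with earlier results of these data known. Genes named were, by rule, the 10 of each direction with the smallest p, the same sign in 3 pairs and a mean of at least 1 CPM, the 3 members of each list with the smallest p, and MX1, ISG15, IFIT3, CXCL10, TLR3, LGALS3BP, B2M, IL6, CXCL8, MMP13, MMP3, COL2A1, ACAN, SOX9 and PRG4. Single-gene results of some genes under this rule are not reported here. Other genes were chosen after their values were seen. Alternatives were no block, DESeq2 1.42.0 with and without it, DESeq2 size factors, filterByExpr, no filter, the 6 samples alone, a prior count of 2, and leaving out each sample or code.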

Additional observations from a re-analysis of the deposited data

Results flagged for a closer look

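The contrast of the 2 media differed between chondrocytes and macrophages in 14 genes by edgeR's interaction test, at an adjusted p under 0.05. In all of these but LGALS3BP and HERC6, the log2 fold change was larger in size in macrophages than in chondrocytes. For LGALS3BP the log2 fold change was higher in chondrocytes by 4.68 (adjusted p = 0.0330 by edgeR), with differences of 5.89, 0.92 and 1.06 in the AG1, ORC and PC chondrocyte pairs, and for HERC6 by 5.74 (adjusted p = 0.0394 by edgeR), with 3.19, 0.02 and 0.29. Without the AG1 samples 2 genes passed, LAMA4 and PXDN, so that neither LGALS3BP nor HERC6 was among them. Without the ORC samples LGALS3BP and HERC6 were among 12 genes that passed. Without the PC samples 9 genes passed, and without the code as a block 0.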

How the results depend on the processing

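Against 0 genes at an adjusted p under 0.05, DESeq2 called 2, the fit with no filter 9 and the 6 samples alone 2. Leaving out 1 sample or code gave 0 to 7 calls: 3 without the AG1 resting sample, 2 without the ORC STING sample, 1 without the PC TLR sample, 7 without the PC STING sample and 5 without PC. Without the code as a block, with samples unpaired, 0 genes were called, 116 against 598 had an unadjusted p under 0.05, and 39 against 41 passed the study's thresholds. The latter count was 19 with DESeq2, 18 with DESeq2 and no block, 9 with filterByExpr, 24 with no filter and 14 with a prior count of 2, and 22 to 54 when samples or codes were left out (22 without the AG1 STING sample, 24 without AG1). The interaction with macrophages gave 0 genes without the block and 2 to 12 without a code (2 without AG1, 9 without PC), and that with synoviocytes 1 without ORC. At an unadjusted p under 0.05, leaving out the block took the interaction with macrophages from 1695 to 731 genes and DESeq2 from 369 to 94, the latter with 0 in place of 2 at the adjusted threshold.

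Some log2 fold changes changed sign. Without the block, THY1 was -0.0827 and CXCL8 -0.97, and with DESeq2 and no block -0.0841 and -0.97. ACAN was 7e-04 with DESeq2 and 0.0105 with the 6 samples alone. When samples or codes were left out in turn, the range was -0.47 to 0.33 for ACAN, -0.89 to 0.0223 for CD14, -0.0847 to 0.77 for CFB, -0.99 to 1.19 for CXCL8, -0.39 to 0.0205 for HSD17B7, -0.70 to 2.41 for IFIT3, -0.23 to 0.16 for IL6, -0.44 to 0.12 for SOX9 and -0.0855 to 0.38 for THY1. The cause was not tested. Of 360 list medians under alternatives 26 moved by more than the spread between pairs, the SD of the 3 pair medians. That spread is wide where a pair stands apart. The interferon list's fall from 0.68 to 0.13 without the AG1 STING sample was therefore not counted as a move. The count thus does not show that the list medians were stable.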

Other observations

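Genes outside the lists also differed in the AG1 pair, and their values were chosen after they were seen. ZC3HAV1, an antiviral zinc finger protein, was 21.5 CPM with STING-MSC-CM and 5.70 CPM with TLR-MSC-CM in AG1, 8.80 and 5.86 CPM in ORC, and 5.58 and 6.02 CPM in PC. The unnamed gene ENSECAG00000033029 was 87.8 and 6.33 CPM in AG1, 9.975 and 7.52 CPM in ORC, and 5.92 and 4.396 CPM in PC. SPON1, a matrix protein, was 28.8 and 9.66 CPM in AG1, 8.80 and 6.82 CPM in ORC, and 14.6 and 14.1 CPM in PC. In the other direction LIPG, endothelial lipase, was 374 CPM with STING-MSC-CM and 770.4 CPM with TLR-MSC-CM in AG1, 159.8 and 68.5 CPM in ORC, and 426 and 479.4 CPM in PC.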
